A study of Rattus norvegicus with 8 samples.

Results

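The Hox genes are the homeobox transcription factors of the 4 chromosomal clusters Hoxa, Hoxb, Hoxc and Hoxd, and their mRNA was measured in the kidney cortex of adult male and female rats. Members were all probes whose RefSeq transcript belongs to a rat gene named Hoxa, Hoxb, Hoxc or Hoxd with a number, whatever their signal. The rule found 17 genes among the 14737 genes named on the array, read by 19 of its 30367 probes, whereas 39 such genes are annotated in the rat assembly GRCr8. The other 22 genes, among them Hoxa10, Hoxd3, Hoxd8 and Hoxd11, have no probe named in this way and were not analysed here.

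Cortical slices were cut from the kidneys of 4 male and 4 female adult RCCHanTMWIST rats, an outbred Wistar stock, and the RNA of each rat was hybridised to its own one-colour Agilent SurePrint G3 Rat GE array. The animals received no treatment, and no gene was altered in either sex. A slice holds all cell types of the cortex, so fewer cells of a type and less RNA per cell cannot be told apart. All 8 arrays lay on 1 slide in 1 scan, with both sexes in equal numbers in each of the slide's rows.

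Along a chromosome the Hox genes of a cluster lie in the order in which they act from the head to the tail of the embryo, and genes of the same number in different clusters, called paralogues, have similar homeodomains. The proteins bind DNA together with cofactors of the TALE class such as Pbx and Meis, and retinoic acid, Cdx factors and the Polycomb and Trithorax proteins set where each gene is active. In the embryo the paralogues of group 11 are needed for the first outgrowth of the kidney. Many Hox genes also stay transcribed in the adult kidney.

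Signal was read for each probe as Agilent's processed signal, a background-corrected brightness, mostly on 2 spots per array. Levels are given as log2 of this signal minus the array's 75th percentile, so a level of 0 is a probe as bright as that percentile. A probe is called well above background on an array where both of its spots, or its only one, pass the scanner software's test. The 75th percentile lay between 5025 and 5944 on the female arrays and between 5685 and 6547 on the male arrays. Between 73.8% and 79.1% of probes were well above background. Brightness depends on the probe as well as on the mRNA, so levels are compared between rats and not between genes.

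Most measured Hox genes gave a signal in the adult cortex, and the genes at the far end of the clusters did not. Of the 19 Hox probes, 12, each of another gene, were well above background on at least 4 arrays, and 10 of these on all 8. This is 63.2% of the Hox probes, against 77.1% of all probes. Of the paralogue groups 1 to 4, 6 of 7 measured genes reached 4 arrays, and of groups 5 to 8 all 3 did. Of groups 9 to 11, 3 of 4 did. Of groups 12 and 13, none of the 3 measured genes did, and Hoxb13, Hoxc12 and Hoxd13, genes of the hindmost body and, for Hoxd13, of the digits, were well above background on no array.

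The clusters were measured to unequal extents. In the Hoxa cluster on chromosome 4, all 4 measured genes reached 4 arrays, among them Hoxa2, Hoxa7 and Hoxa11. In the Hoxb cluster on chromosome 10, 2 of 5 did, namely Hoxb4 and Hoxb7. In the Hoxc cluster on chromosome 7, 2 of 3 did, namely Hoxc4 and Hoxc5, and in the Hoxd cluster on chromosome 3, 4 of 5 did, namely Hoxd1, Hoxd4, Hoxd9 and Hoxd10. Hoxb3 was well above background on 3 arrays and Hoxb9 on 2, both of them female for Hoxb9. No Hox probe was well above background on 3 or more arrays of one sex and on none of the other.

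**Figure D1:**
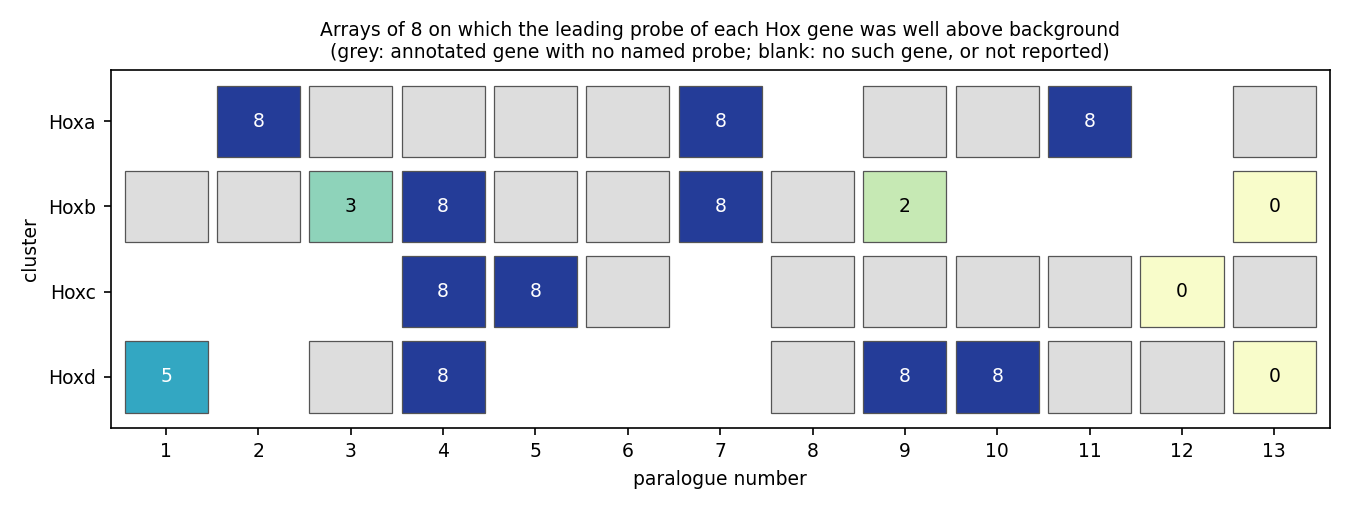
The map shows the annotated rat Hox genes by cluster (rows) and paralogue number (columns), with the number of the 8 arrays on which its leading probe was well above background; grey boxes are annotated genes with no named probe, and blank places have no such gene or one not reported here. The 3 measured genes of groups 12 and 13 stand at 0, and 10 genes stand at 8.

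For the genes without a tested probe only the readings can be given. The Hoxb3 probe gave signals between 11.6 and 24.4, and the Hoxb9 probe between 15.4 and 28.4, both close to the dimmest probes called well above background, which lay between 14.5 and 23.9 on the 8 arrays. Where any 1 of the spots had to pass, an alternative chosen after seeing the data, Hoxb3 counted on 6 arrays and Hoxb9 on 5, and their differences between males and females were 0.01 (adjusted p = 0.984 by limma) and -0.21 (adjusted p = 0.548). The Hoxb13 probe gave 3.13 to 5.18, the Hoxc12 probe 3.41 to 13.4 and the Hoxd13 probe 3.27 to 9.74. In male replicate 1, 1 of the Hoxd13 spots read 3662 while the other read 6.49. The scanner software marked the bright spot as an outlier, and it was left out. It was the only one of 288 Hox spot readings left out.

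Among the 12 tested Hox genes 1 differed between the sexes by the criteria used, and it was Hoxd4. This gene of the Hoxd cluster encodes a transcription factor that patterns the hindbrain and the upper neck vertebrae. Its promoter window is shown because it is the sex-dependent member, beside those of Hoxd10, a gene of the same cluster whose difference had the opposite sign, and Hoxc4, its paralogue. The windows come from RefSeq on GRCr8 and reach from 250 bases before to 50 bases after the start of the gene record, read 5′ to 3′ on the plus strand. They are chr3:80021636-80021935 for Hoxd4, chr3:80001697-80001996 for Hoxd10 and chr7:136048809-136049108 for Hoxc4. Capitals mark matches to the motifs named after them.
Hoxd4: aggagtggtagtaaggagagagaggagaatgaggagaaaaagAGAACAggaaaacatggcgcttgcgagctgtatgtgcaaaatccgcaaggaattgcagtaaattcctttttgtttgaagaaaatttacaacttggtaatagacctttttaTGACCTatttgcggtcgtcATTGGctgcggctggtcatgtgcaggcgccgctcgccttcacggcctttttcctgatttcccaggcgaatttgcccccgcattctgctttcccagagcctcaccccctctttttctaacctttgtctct
Hoxd10: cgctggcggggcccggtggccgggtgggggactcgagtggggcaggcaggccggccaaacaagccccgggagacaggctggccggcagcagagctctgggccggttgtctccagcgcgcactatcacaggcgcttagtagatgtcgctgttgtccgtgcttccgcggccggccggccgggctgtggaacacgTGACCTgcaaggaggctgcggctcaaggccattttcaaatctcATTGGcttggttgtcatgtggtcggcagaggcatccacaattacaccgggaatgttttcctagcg
Hoxc4: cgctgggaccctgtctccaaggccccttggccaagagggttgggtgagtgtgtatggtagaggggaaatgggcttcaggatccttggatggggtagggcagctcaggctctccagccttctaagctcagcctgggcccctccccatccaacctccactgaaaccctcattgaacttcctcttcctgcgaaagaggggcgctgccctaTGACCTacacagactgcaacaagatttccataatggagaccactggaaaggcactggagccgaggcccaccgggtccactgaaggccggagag

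Windows were found for 9 of the 17 measured genes, 8 of them with a tested probe. Short motifs were searched on both strands. AGAACA, the half-site of androgen and glucocorticoid receptors, occurred in 1 of the 8 promoter windows of tested Hox genes, that of Hoxd4, where it starts 208 bases before the gene start, and in 20.7% of 33469 rat promoter windows. AGGTCA, a half-site of retinoid receptors, occurred in 3 of the 8, which are the 3 windows printed, and in 16.2% of all. CCAAT, the box bound by NF-Y, occurred in 7 of the 8, all but Hoxc4, and in 37.5% of all. TGATNNAT, which Hox and Pbx proteins can bind together, occurred in those of Hoxa2 and Hoxa7 and in 9.1% of all. TTCNNNGAA, the core bound by STAT factors and BCL6, and TATAAA occurred in none of the 8, against 8.87% and 14.2% of all windows. Each match describes letters in a window and is not a measured binding site. RefSeq lists more than one transcript of Hoxd4 and a long noncoding RNA that overlaps its start, and the place of the probe in the gene is not given in the sources used here, so transcripts that overlap there cannot be told apart.

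The Hoxd4 probe was brighter in every male than in any female. Its processed signal was 182, 171, 176 and 222 in female replicates 1 to 4 and 584, 554, 598 and 534 in male replicates 1 to 4. The highest female thus lay well under the lowest male, and the spread within each sex was small beside the gap. On the log2 scale the level was -4.89 ± 0.11 in females and -3.47 ± 0.10 in males (SD, n = 4 each).

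The difference between males and females was 1.43 on the log2 scale (SE 0.0833, 95% confidence interval 1.24 to 1.62), or 2.69-fold, with an adjusted p of 0.000208 by limma. By the exact two-sided permutation test over the 70 ways of choosing 4 of 8 rats, p was 0.0286, the smallest this design can give. In size the difference exceeded those of 98.6% of the 23425 tested probes. The 2 spots of the probe differed by a median of 0.07 on the log2 scale within an array. Within the rows of the slide the difference was 1.32 and 1.53, each from 2 females and 2 males. In the 4 columns of the slide, each with 1 rat of either sex, it ranged from 1.29 to 1.56.

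Counted over the members, 1 of 12 tested Hox probes passed an adjusted p of 0.05 together with a size of 1 on the log2 scale, against 1.89% of all tested probes. It was also the only one of 12 with an adjusted p under 0.05, against 8.06% of all. The values of the sexes did not overlap for 2 of 12, Hoxd4 and Hoxc5, against 18.5% of all. Of the differences, 6 were positive and 6 negative, with a median of -0.0024 against -0.0445 over all tested probes. Without regard to sign the median size was 0.31 for the Hox probes and 0.15 for all.

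**Figure D2:**
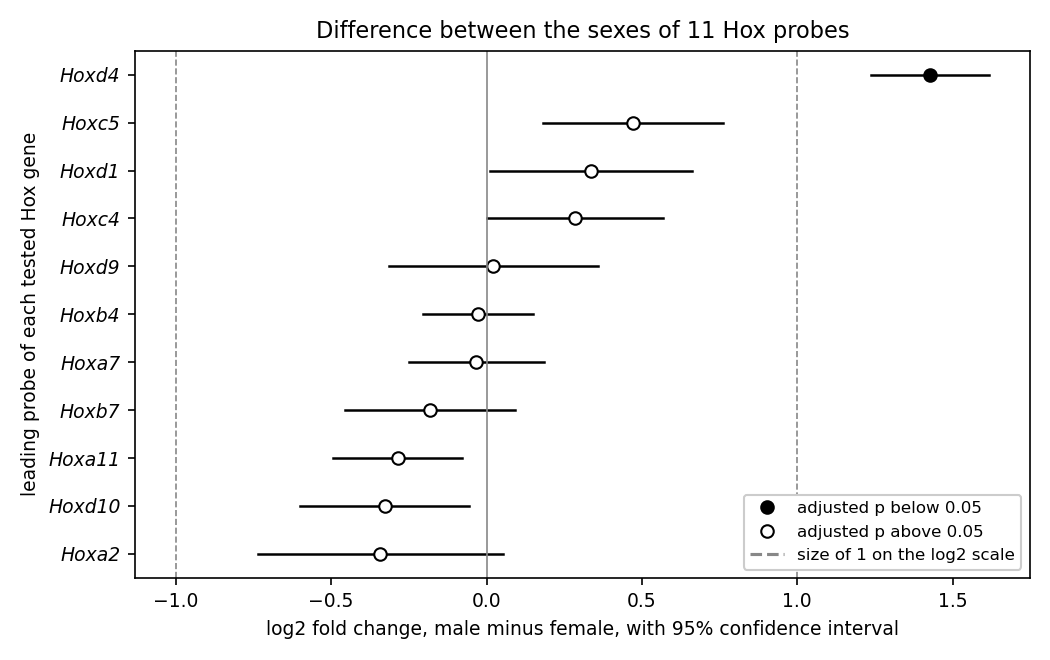
Each point is the log2 fold change (male minus female, horizontal axis) of the leading probe of 11 of the 12 tested Hox genes, with its 95% confidence interval, and filled points have an adjusted p under 0.05. Only Hoxd4, at 1.43, lies past the dashed line at a size of 1.

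The other measured paralogues of group 4, Hoxc4 and Hoxb4, had smaller differences. That of Hoxd4, chosen for this comparison after its values were seen, exceeded that of Hoxc4 by 1.14 and that of Hoxb4 by 1.45 on the log2 scale, which is a description with no test. Hoxc4, which like Hoxd4 acts in the hindbrain and neck, gave 67.0, 52.7, 81.5 and 71.8 in females and 106, 81.6, 104 and 83.1 in males. These signals, before scaling, did not overlap, with the brightest female at 81.5 and the dimmest male at 81.6. After scaling to the array the Hoxc4 levels overlapped between the sexes. The difference of 0.29 (SE 0.124) had an adjusted p of 0.191. Hoxb4, known for its part in blood stem cells, gave 1949, 1536, 1871 and 1809 in females and 2029, 1710, 2002 and 2222 in males. After scaling to the array its difference was -0.03 (SE 0.0766, 95% confidence interval -0.20 to 0.15, adjusted p = 0.862). The fourth paralogue, Hoxa4, has no named probe.

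**Figure D3:**
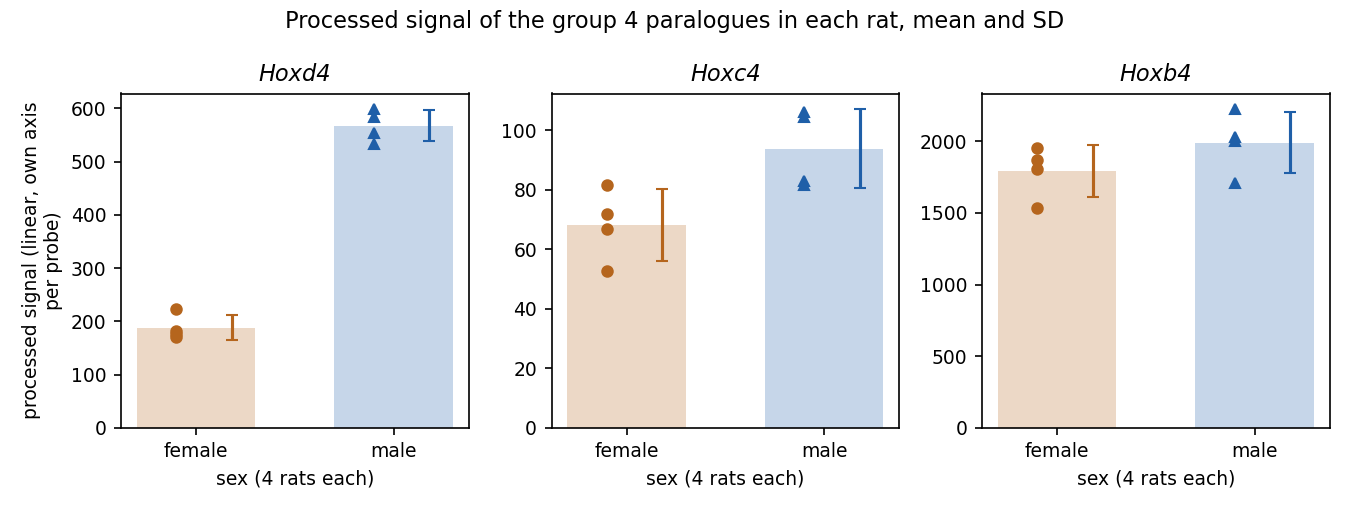
Processed signal (vertical axes, linear from 0, a scale of its own for each probe) of the 3 measured paralogues of group 4 in each rat, with bars for the mean and whiskers for the SD of 4 rats. The Hoxd4 values of males, from 534 to 598, lie above those of females, from 171 to 222, while those of Hoxb4 overlap.

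The other tested genes of the Hoxd cluster had smaller differences as well. With the sign kept, that of Hoxd4 exceeded them by 1.09 for Hoxd1, 1.40 for Hoxd9 and 1.75 for Hoxd10, whose own difference was negative. Hoxd1, at the front end of the cluster, was dim and well above background on 5 arrays, with signals of 23.1, 19.2, 27.2 and 23.1 in females and 34.7, 23.8, 41.6 and 33.7 in males. The values overlapped, with a difference of 0.34 (SE 0.141, adjusted p = 0.181, exact permutation p = 0.0571). Hoxd9 and Hoxd10 act in the lumbar region and the limb. Hoxd10 gave 9445, 9137, 10372 and 13200 in females and 9111, 7615, 11336 and 9958 in males.

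Its values overlapped, and its difference was -0.33 (SE 0.118, adjusted p = 0.130, exact permutation p = 0.0571), of the opposite sign to that of Hoxd4. Hoxd9 ranged from 28899 to 49106 in females and from 37461 to 46041 in males, with a difference of 0.02 (SE 0.146, adjusted p = 0.944). Of the genes that flank the Hoxd cluster, Lnpk, which shapes the endoplasmic reticulum, differed by 0.12 (adjusted p = 0.409), and Mtx2, a mitochondrial import protein, by -0.01 (adjusted p = 0.972). Evx2, next to Hoxd13, was well above background on no array.

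These contrasts came from the level of Hoxd4 minus that of each other tested Hox probe, formed within each array and compared between the sexes. For 10 of the 11 probes every male lay above every female, with differences from 0.95 to 1.77. For the remaining probe, not reported here, the sexes overlapped.

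**Figure D4:**
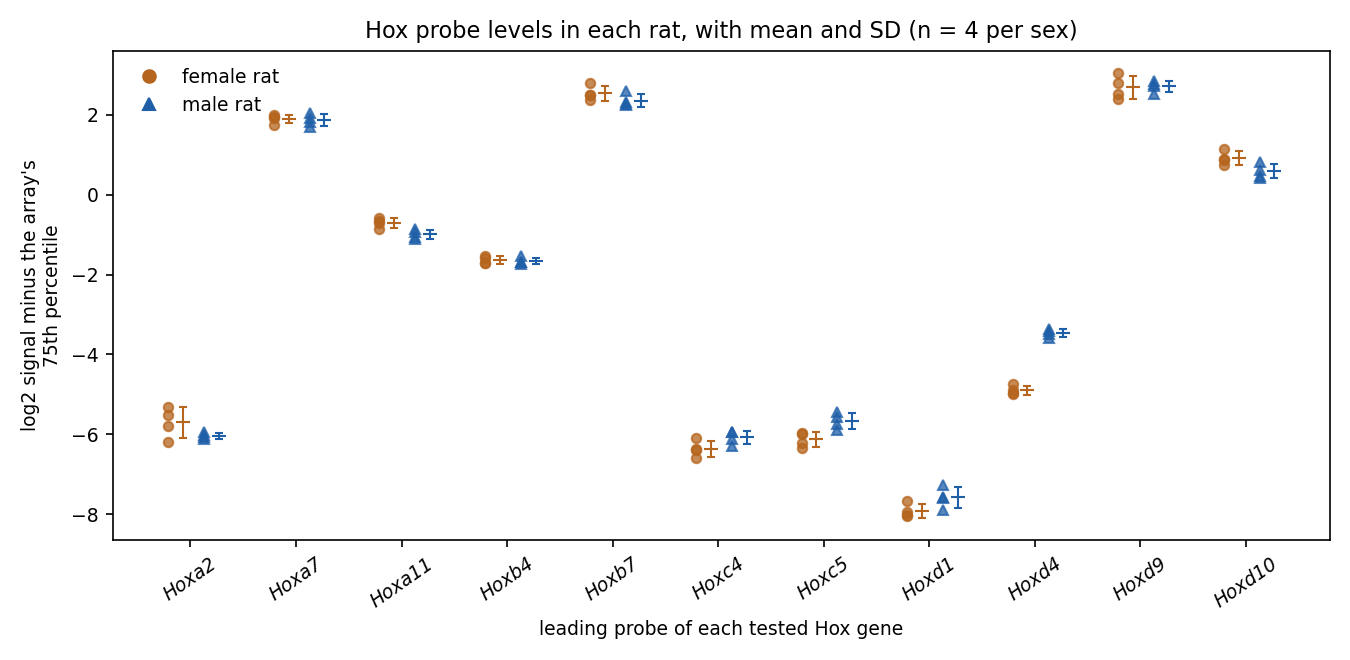
Level (log2 signal minus the array's 75th percentile, vertical axis) of the leading probe of 11 of the 12 tested Hox genes in each rat, with the mean and SD of 4 rats per sex. Hoxd4 stands at -4.89 in females and -3.47 in males, and only for it and Hoxc5 do the sexes not overlap.

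Hoxc5, a gene of the lower neck region, was higher in all males than in all females. Its brighter probe, a single spot per array, gave 90.4, 78.7, 75.5 and 73.2 in females and 139, 132, 121 and 108 in males. In level the sexes did not overlap, and the difference was 0.47 (SE 0.126, 95% confidence interval 0.18 to 0.76). Its adjusted p was 0.0583 and its exact permutation p 0.0286, so it narrowly missed the threshold over all probes. With quantile normalization its adjusted p was 0.00992 and with normexp background correction 0.285, at differences of 0.57 and 0.20. With the slide row as a block it was 0.0433.

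The second Hoxc5 probe did not show this. It was well above background on 3 arrays and was not tested, with signals of 29.5, 24.5, 30.4 and 21.7 in females and 31.8, 48.4, 13.7 and 16.1 in males. Its male levels spanned a wider range than its female ones, and the sexes overlapped. Where any 1 of the spots had to pass, this probe was tested, with a difference of -0.39 (SE 0.367, adjusted p = 0.558), of the opposite sign.

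Hoxa2, the gene of the second branchial arch and the hindbrain, varied mainly among females. Its signals were 124, 69.0, 139 and 108 in females and 100.4, 92.2, 95.3 and 92.5 in males. Female replicate 2 was the dimmest of all 8 rats and female replicate 3 the brightest. In level the SD was 0.38 in females and 0.08 in males, and the difference of -0.34 (SE 0.172) had an adjusted p of 0.256.

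Hoxa11, the measured member of the group needed for kidney outgrowth, gave 3777, 2758, 3529 and 3633 in females and 3617, 2718, 3372 and 2995 in males. Its levels overlapped by a narrow margin, since female replicate 2 lay below male replicate 1. The difference was -0.29 (SE 0.0901, 95% confidence interval -0.49 to -0.08, adjusted p = 0.0925, exact permutation p = 0.0571). The start of Hoxa11 overlaps that of an antisense transcript in RefSeq, and which strand the probe reads is not given in the sources used here.

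The group 7 paralogues, which act in the chest region, overlapped between the sexes. Hoxb7 ranged from 28301 to 39396 in females and from 28485 to 38833 in males, with a difference of -0.18 (SE 0.119, adjusted p = 0.381). Hoxa7 ranged from 18994 to 22831 in females and from 18274 to 27090 in males, with a difference of -0.03 (SE 0.0948, 95% confidence interval -0.25 to 0.18, adjusted p = 0.867). Of the 12 tested probes, 7 had an unadjusted p under 0.05, against 25.6% of all tested probes, and 1 an adjusted one.

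Regulators and partners of the Hox proteins were examined in 5 lists, by their leading probes, and counted at an adjusted p under 0.05, which 8.06% of all tested probes reached. Of 7 tested TALE cofactors, 1 was higher in females and none in males, with a median difference of -0.08. It was Pbx4, a partner that raises the DNA affinity of Hox proteins, with levels of -1.76, -1.84, -1.97 and -2.19 in females and -2.67, -2.50, -2.80 and -2.50 in males. No male reached the lowest female, and the difference was -0.68 (SE 0.115, adjusted p = 0.0115). Meis1, a second cofactor, differed by -0.27 (adjusted p = 0.0517).

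Of 10 tested partners in kidney development, 1 was higher in females and none in males, with a median of -0.21. It was Six4, a homeobox factor of the early kidney, whose difference was -0.50 (SE 0.114, adjusted p = 0.0361). Its other probe stayed near background in all 8 rats. Pax2 and Pax8, which specify the kidney lineage, differed by -0.22 (adjusted p = 0.439) and -0.07 (adjusted p = 0.711). Gdnf and Osr1, which work beside the group 11 genes in the embryo, were well above background on no array.

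Of 17 tested Polycomb and Trithorax regulators, 1 was higher in females and none in males, with a median of 0.01. It was Ezh1, a histone methyltransferase of Polycomb repressive complexes, with a difference of -0.32 (SE 0.0721, adjusted p = 0.0340), and its second probe gave -0.40 (adjusted p = 0.166). The largest difference in size, that of the Trithorax member Kmt2a, was -0.58 (adjusted p = 0.156). Of 9 tested genes that flank the clusters, none passed. Snx10, an endosomal sorting protein, came closest with 0.83 (SE 0.215, adjusted p = 0.0522).

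Of 12 tested genes of retinoic acid and Cdx regulation, 1 was higher in males and 1 in females, with a median of 0.10. The latter was Crabp1, which binds retinoic acid and was lower in males by a difference of -0.51 (SE 0.110, adjusted p = 0.0288). Cyp26a1 and Cyp26b1, which break retinoic acid down, differed by 0.76 (adjusted p = 0.0540) and 0.89 (adjusted p = 0.0673). Cdx2, an upstream factor in the embryo, had the largest difference in size, -0.90, with overlapping values (adjusted p = 0.166).

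The samples carried the markers of cortex, with the 6 proximal tubule probes averaging 4.14 to 4.22 above the 75th percentile in all rats. Of these 6, 2 passed the test in opposite directions: Cubn, an endocytic receptor, was lower in males by a difference of -0.59 (adjusted p = 0.00452), and Slc22a6, the anion transporter Oat1, was higher by 0.38 (adjusted p = 0.0153). Other marker lists moved with sex. The 3 probes of the thick ascending limb averaged 1.50 to 1.57 in females and 0.99 to 1.27 in males, and 1 of 3, Cldn16, passed the test. The 8 collecting duct probes averaged 1.66 to 1.91 in females and 1.52 to 1.58 in males, and none passed.

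The inner medulla and urothelium list also stood higher in females, with a narrow margin between the ranges of the sexes. Its 3 tested probes averaged -3.94 to -3.16 in females and -4.44 to -3.98 in males, and 1 of them, Aqp4, passed, while Slc14a2 and Upk2 were well above background on no array. The differences of the 3 leading probes ranged from -1.19 to -0.20. The leading Aqp4 probe had the largest in size, -1.19 (adjusted p = 0.0235 by limma). The other Aqp4 probes gave -1.13 (adjusted p = 0.0396) and -0.26 (adjusted p = 0.296). The 2 leukocyte probes well above background on all arrays averaged -2.36 to -1.56 in females and -1.75 to -1.34 in males, and none of 3 tested leukocyte markers passed. The 2 adipocyte probes averaged -3.55 to -1.30 in females and -3.73 to -3.28 in males, and none of 3 tested passed.

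The 5 podocyte probes averaged -0.43 to -0.24 in females and -0.50 to -0.40 in males, and 1 of them, Podxl, was lower in males by a difference of -0.27 (adjusted p = 0.0354). The distal convoluted tubule probe, Slc12a3, lay at 2.72 to 3.42 in females and 3.15 to 3.42 in males. None of the tested markers of stroma, smooth muscle, endothelium or adrenal gland passed, and their ranges overlapped between the sexes. The part of cell composition in the Hox values was not tested.

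Averaged over the 10 Hox probes well above background on all arrays, the level was -1.84 to -1.67 in females and -1.69 to -1.58 in males. Without Hoxd4 it was -1.50 to -1.31 in females and -1.48 to -1.37 in males, so the ranges of the sexes overlapped with and without it.

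**Figure D5:**
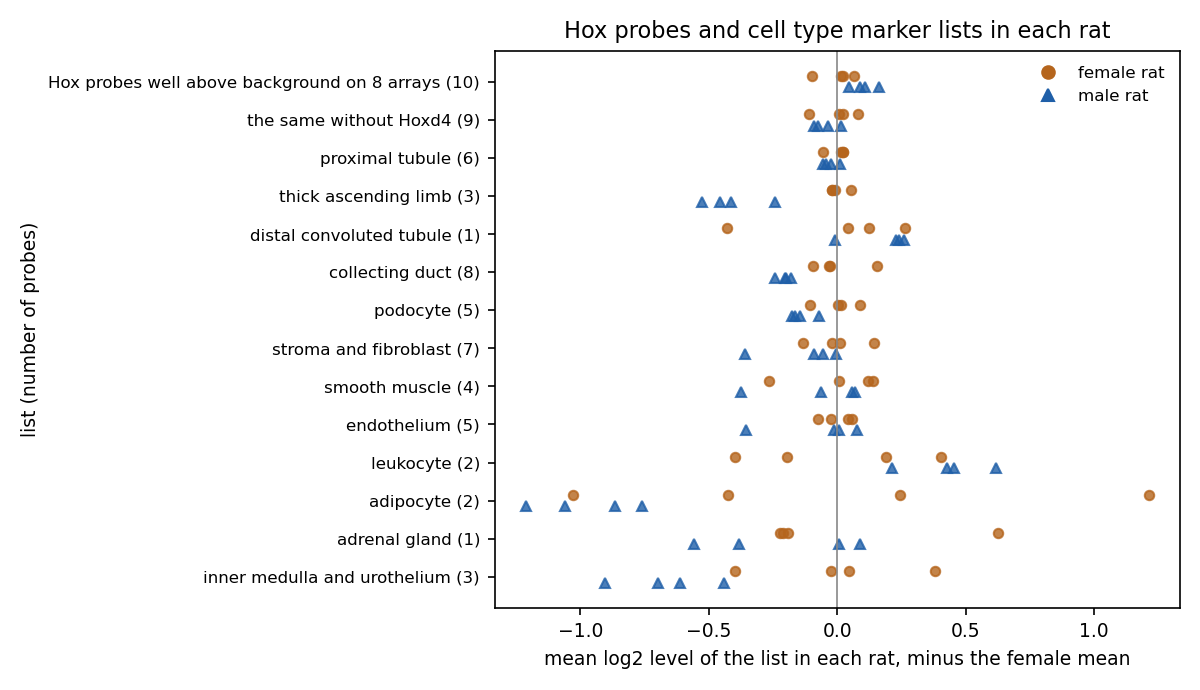
Mean level of each list in each rat minus the mean of the females (log2, horizontal axis), for the Hox probes and for cell type marker lists, with the number of probes in brackets. The thick ascending limb, collecting duct and inner medulla lists lie lower in all males, and the Hox probes without Hoxd4 overlap between the sexes.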

How the data were processed

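Per the labels, total RNA of 8 cortical slices was Cy3-labelled and hybridised, and the authors read the arrays with Agilent Feature Extraction 10.7.3.1. The deposited files hold the processed intensity of each spot, and a deposited table holds the authors' log2 values, used as an alternative; the submitters' processing notes name limma 3.8.2 without its role. From the intensity, outlier spots were left out, log2 was taken, the array's 75th percentile of non-control spots was subtracted, and spots of a probe were averaged. Probes well above background on at least 4 arrays (23425) were tested with limma 3.58.1 in R 4.3.3 (lmFit and eBayes, male minus female, Benjamini-Hochberg adjustment over all tested probes). Sex-dependent means an adjusted p under 0.05 with a difference of 1 or more on the log2 scale (2-fold), in either direction. Probes were named by RefSeq accession, which gave a gene for 17514 of 30367. Given in full were Hox genes with an adjusted p under 0.05 and those with the 6 largest differences, and from each list the genes that passed and the largest difference. The members and lists were chosen with earlier results of these data known. Some genes counted here are not reported by name. The fit was tested on simulated data. The number of arrays, 4 per sex and 1 rat each, limits the precision. Alternatives covered normalization, normexp background correction (offset 50), filters, outlier spots, variance prior, array weights, blocks and each array left out.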

Additional observations from a re-analysis of the deposited data

How the results depend on the processing

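The sex-dependent call of Hoxd4 was kept under all 20 alternatives run, with differences from 1.14 (normexp) to 1.50 and adjusted p from 7.36e-05 to 0.00724 by limma. Leaving out each rat in turn gave 1.39 to 1.48 (adjusted p 0.000184 to 0.00136). The count of Hox probes with an adjusted p under 0.05 was 1, and became 3 with quantile normalization and 3 with the authors' log2 values (Hoxc5 among those added), 2 with the replicate block and 2 with the slide row as a block (Hoxc5 added); the cause was not tested. It stayed at 1 with each rat left out. The number of tested Hox probes, 12, was 10 when all arrays had to be well above background and 15 with at least 1 array or, chosen after seeing the data, with any spot.

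No source says that a shared replicate number marks a shared litter or day. The deviations of same-numbered rats correlated at 0.13, 0.04, -0.01 and 0.12, so not every pair passed 0.1, and the numbers were not used as pairs. A weak pairing is possible, since 5 of 8 arrays correlated best with their own number, a hint from the data and not from the design. Both rats numbered 1 lay in column 1 of the slide and both numbered 3 in column 4, and the part of this position was not tested. With the replicate block the Hoxd4 difference was 1.43 (adjusted p = 0.00724) and that of Hoxc5 0.47 (adjusted p = 0.0325).

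Differences near 0 changed sign. Hoxb4 was 0.0016 with quantile normalization. With each rat left out in turn, Hoxb4 was -0.0689 to 0.00658, Hoxa7 -0.0925 to 0.0285 and Hoxd9 -0.0750 to 0.142. The differences of Hoxc4 and Hoxd1 shrank to 0.09 and 0.0039 under normexp, as did that of Hoxc5. The offset of 50 in that correction compresses, by its construction, the differences of probes this dim. Without female replicate 1 the Hoxb7 difference was -0.0944, and that of Hoxa2 was -0.216 without female replicate 3 and -0.506 without female replicate 2 (adjusted p = 0.0608).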
